A study of Mus musculus with 4 samples.

Results

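The genes described here are the 2 coreceptor loci that define helper and cytotoxic T cells and the transcription factors that set them. They are Cd4, Cd8a and Cd8b1, with Zbtb7b, Runx3, Runx1 and Gata3, which makes 7 of the 32285 genes in the RNA table. They were chosen by name and not by a rule on measured values, although earlier results of these data were known. With them go the chromatin-accessibility peaks that overlap each gene or lie within 10 kb of it, 104 of 148283 peaks: 5 at Cd4, 10 at Cd8a, 9 at Cd8b1, 8 at Zbtb7b, 19 at Runx3, 38 at Runx1 and 15 at Gata3.

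CD4 and CD8 are the coreceptors with which a T cell reads class II or class I MHC, and a mature conventional T cell keeps one of them and silences the other. Cd4 encodes a single-chain coreceptor, whereas Cd8a and Cd8b1 encode the chains of the CD8 dimer and sit beside each other on the same chromosome. Zbtb7b encodes ThPOK, the factor that commits thymocytes to the helper lineage. Gata3 acts upstream of ThPOK and later drives type 2 helper responses. Runx3 commits thymocytes to the cytotoxic lineage, silences Cd4 and binds Cd8 enhancers, and Runx1 is the family member active from early thymocytes onward. In activated helper cells of the cytotoxic or type 1 kind, Runx3 is also known to be expressed.

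The cells came from C57BL/6 mice given 5000000 bone marrow cells, 500000 CD4 T cells and 500000 CD8 T cells of the donor strain C3H.SW, a transplant across minor histocompatibility differences. Recipients in the group labelled alloBMT received the transplant alone, and those in the group labelled PT-Cy also received cyclophosphamide at 50 mg/kg on days 3 and 4. Both groups share the strains, graft and time point. On day 14, both kinds of T cell were isolated from marrow by flow cytometry, with 4 mice combined in each group, and RNA and open chromatin were read from the same nuclei. The sources used here give no age, and the labels do not say which sorted cells were of donor or of recipient origin.

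Each group was therefore 1 pooled library per measurement, and no difference between the groups has a replicate check. Each interval given is an exact 95% interval for the counting of molecules or fragments alone, and no p-value was computed. The deposited CD4 set held 926 alloBMT cells and 284 PT-Cy cells with 3027967 and 1264107 unique molecular identifiers (UMIs, 1 per captured RNA molecule), at medians of 2750 and 3889 per cell. Accessibility was also used for a CD8 set of 1865 and 512 cells, whose RNA was not analysed here. Over the 4 combinations of set and library, accessibility counts ranged from 1538967 to 16605930. The same barcode occurred in both libraries for 2 cells.

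The authors' gate on the CD4 set touches the coreceptor genes directly. All 926 and 284 cells had at least 1 Cd4 UMI and 0 Cd8a UMIs, so presence of Cd4 RNA and absence of Cd8a RNA are properties of the selection. The Cd8a count of 0 was fixed by that selection and says nothing of its level before it. Levels are given as CPM, counts per 1000000 counts of the group. Cd8b1 was not part of that condition and was detected. A Cd8b1 UMI is used below to divide the CD4 set.

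Among the T cell genes fixed for checking the label, Cd247, the CD3 zeta chain, had the largest difference between libraries, with a log2 ratio of -1.04, and the other 11 of 12 differed by less than 2-fold. RNA of other marrow cells was present in both libraries and higher in PT-Cy. Summed CPM of 6 red cell genes was 211 in alloBMT and 853 in PT-Cy, and that of 8 neutrophil genes was 33.0 and 252. For 8 B cell genes it was 23.4 and 83.1, and for 9 macrophage and dendritic cell genes 219 and 385. For 8 natural killer and gamma delta T cell genes it was 62.1 and 111, although Tcrg-C2, the only testable gene of that list, was lower in PT-Cy (33.4 and 16.6 CPM). The part of this RNA in the results below was not tested. In a pool of sorted cells, fewer cells with a transcript and less transcript per cell cannot be told apart from summed levels alone.

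Start-region sequences show which lineage genes carry letters that RUNX proteins are known to bind. RefSeq on GRCm38.p6 gave 8 start regions, each from 250 bases before to 50 bases after a start, for 5 of the 7 genes: Cd8a, Zbtb7b, Runx3, Runx1 and Gata3. The letters TGTGGT, or ACCACA on the other strand, occurred in 3 of the 8 and in 16.8% of 32851 such regions genome-wide. The GATA letters AGATAA, or TTATCT, occurred in 0 of the 8 and in 11.2% genome-wide. With no GATA match in these regions, an overlap of the motifs was not possible. Below are the 250 bases before the Cd8a start (chr6:71373177-71373426, plus strand), which hold neither motif, and those before the distal Runx3 start (chr4:135120395-135120644, plus strand), printed 5′ to 3′ with the RUNX letters in capitals. The last line is the 18-base stretch that the distal Runx3 and Runx1 start regions share, 136 bases before the start in Runx3 and 26 bases after it in Runx1.
Cd8a: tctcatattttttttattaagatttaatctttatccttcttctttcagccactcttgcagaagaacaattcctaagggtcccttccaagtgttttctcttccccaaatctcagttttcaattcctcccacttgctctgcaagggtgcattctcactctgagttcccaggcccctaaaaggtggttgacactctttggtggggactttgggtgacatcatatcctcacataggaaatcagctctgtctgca
Runx3 distal: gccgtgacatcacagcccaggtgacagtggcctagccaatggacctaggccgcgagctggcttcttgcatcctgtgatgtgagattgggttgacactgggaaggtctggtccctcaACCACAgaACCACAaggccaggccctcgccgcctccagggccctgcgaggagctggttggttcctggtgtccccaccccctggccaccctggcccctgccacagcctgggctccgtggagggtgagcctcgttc
Shared by Runx3 and Runx1: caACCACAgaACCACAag
That stretch, with its 2 adjoining RUNX matches, occurred in 3 of the 32851 regions, those of Runx1, Runx2 and Runx3. At least 2 RUNX matches occurred in 1.81% of all regions. An accessibility peak covered 6 of the 8 starts, among them Cd8a and both starts of Runx3 and of Runx1. A match is a description of the letters and not a measured binding site.

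In the CD4 set as a whole, Runx3 and Cd4 RNA were lower and Gata3 RNA was higher in PT-Cy than in alloBMT, while Runx1 was at a similar level. Runx3 was 415 CPM in alloBMT (1257 UMIs) and 223 CPM in PT-Cy (282 UMIs), a log2 ratio of -0.90 (-1.09 to -0.71). Gata3 was 128 CPM (389 UMIs) and 239 CPM (302 UMIs), a log2 ratio of 0.90 (0.67 to 1.12). The 2 factors that act on opposite sides of the lineage choice thus differed between the libraries in opposite directions. Scaled to library totals, each differed by 1.86-fold. That equal size depends on the scaling. With edgeR factors instead of totals, the log2 ratios were -1.03 for Runx3 and 0.76 for Gata3.

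Cd4, the gated coreceptor, was 649 CPM (1966 UMIs) and 407 CPM (514 UMIs), a log2 ratio of -0.68 (-0.82 to -0.53). The gate fixes a minimum of 1 UMI per cell in both libraries, so this ratio describes levels above that minimum and also depends on the deeper PT-Cy cells. Cd8b1 was 100 CPM (303 UMIs) and 131 CPM (166 UMIs), a log2 ratio of 0.39 (0.11 to 0.67). Zbtb7b rested on 40 and 34 UMIs, 13.2 and 26.9 CPM, with a log2 ratio of 1.03 and a wide interval of 0.32 to 1.72. Runx1, the best-sampled of the 7, was 1171 CPM (3545 UMIs) and 1138 CPM (1439 UMIs), a log2 ratio of -0.04 (-0.13 to 0.05).

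Cd8a, with 0 UMIs, and Zbtb7b, with 40 and 34, were below the minimum of 100 UMIs over both libraries and could not be called. None of the other members reached a 2-fold difference, where 7.81% of the 6285 genes tested did. Runx3 was lower by more than 2-fold when cells with a Cd8b1 UMI were left out, from 402 to 190 CPM, a log2 ratio of -1.08 (-1.34 to -0.84). In that comparison 8.36% of genes passed the same size rule. It also passed 2-fold when libraries were scaled by edgeR or DESeq2 factors instead of totals, which moved the ratios of all genes by -0.13 and -0.14. The same scaling changed the split of all called genes from 310 higher and 181 lower to 234 and 260 with edgeR factors. In cells with a Cd8b1 UMI, the Runx3 log2 ratio was -0.68 and that of Gata3 was 0.95, no member reached 2-fold, and 6.23% of genes did.

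**Figure D1:**
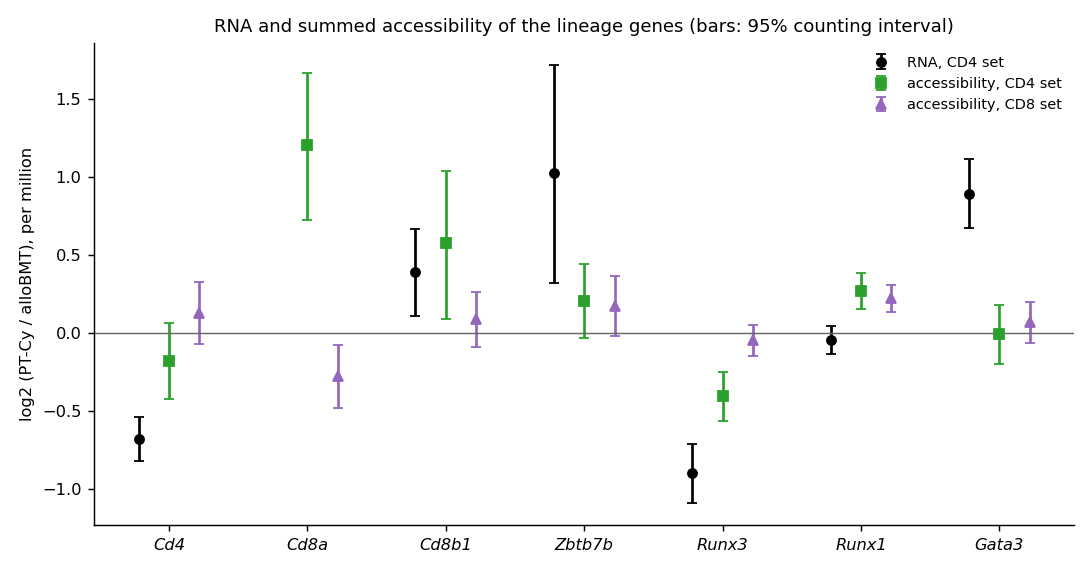
Log2 ratio of PT-Cy to alloBMT for each lineage gene, for RNA in the CD4 set and for accessibility summed over the gene's peaks in the CD4 and CD8 sets; bars are exact 95% counting intervals. Runx3 lay below 0 for RNA (-0.90) and for CD4-set accessibility (-0.40), whereas its CD8-set accessibility lay at -0.05.

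The share of cells with a UMI depends on depth, so each cell was reduced to 1981 UMIs and the expected share over all such draws was taken, leaving out 96 and 25 shallower cells. At that depth, Runx3 was detected in 50.0% of the 830 deep enough cells of alloBMT (46.5 to 53.5), against 31.4% of the 259 in PT-Cy (25.7 to 37.3). Gata3 was detected in 20.2% (17.6 to 23.1) and 33.0% (27.1 to 38.9). Runx1 was detected in 72.3% (69.1 to 75.3) and 82.4% (77.5 to 87.0). For these 3 genes the intervals did not overlap, and the order of Runx3 and Gata3 was that of their summed levels. At 1200 UMIs per cell, the Runx1 intervals overlapped (57.5 to 63.9 and 62.4 to 73.6), and those of Runx3 and Gata3 did not.

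Cd8b1 was detected in 14.9% (12.5 to 17.4) and 19.4% (14.7 to 24.6) of thinned cells, and Zbtb7b in 2.25% (1.38 to 3.55) and 4.87% (2.70 to 8.43). For scale, Hbb-bs, a haemoglobin chain that T cells do not make, was detected in 20.2% and 48.9% of the same cells, and S100a9, a neutrophil protein, in 2.04% and 7.58%. The shares of Cd8b1, Zbtb7b and Gata3 in both libraries, and that of Runx3 in PT-Cy, were at or below that of Hbb-bs, so no expression in individual cells and no difference between libraries is read from those shares alone. Without thinning, shares were 21.1% and 32.0% for Cd8b1, 61.9% and 51.8% for Runx3, 79.2% and 90.8% for Runx1, 28.4% and 51.1% for Gata3, 3.56% and 9.86% for Zbtb7b, and 29.9% and 74.6% for Hbb-bs.

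The deposited clusters divided the CD4 cells into 5 groups, and the libraries filled them unevenly. In alloBMT, clusters 0 to 4 held 374, 320, 42, 156 and 34 cells, whereas 238 of the 284 PT-Cy cells were in cluster 2, with 4, 0, 11 and 31 cells in clusters 0, 1, 3 and 4. Because a cluster is built from measurements of the cells it holds, levels by cluster are a description. Comparison of the libraries within a cluster was possible for clusters 2 and 4.

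Runx1 and Runx3 RNA ran in opposite directions across alloBMT clusters 0, 1 and 3, the best filled. Runx1 was 1690 CPM in cluster 0, 622 in cluster 1, 1352 in cluster 2, 1099 in cluster 3 and 1403 in cluster 4. Runx3 was 295, 579, 353, 401 and 171 CPM in the same clusters. Cluster 1 therefore had the lowest Runx1 and the highest Runx3, and its log2 ratio to cluster 0 was -1.44 (-1.57 to -1.32) for Runx1 and 0.97 (0.78 to 1.17) for Runx3. Of all genes, 3.42% differed by 2-fold between these clusters, and Runx1 was the 1 member that did.

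Gata3, the type 2 and helper-side factor, was 158, 85.5, 85.5, 150 and 233 CPM in alloBMT clusters 0 to 4. It was 208 CPM in PT-Cy cluster 2 and 328 CPM in PT-Cy cluster 4. Among groups of at least 30 cells, cluster 4 was thus the highest for Gata3 in each library, and it was also the highest for Zbtb7b, at 38.8 CPM in alloBMT (5 UMIs) and 57.0 CPM in PT-Cy (8 UMIs). For Runx3, cluster 4 was the lowest in each library, at 171 and 157 CPM.

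Cd8b1 was 78.3, 121, 85.5, 122 and 54.3 CPM in alloBMT clusters 0 to 4. In PT-Cy it was 145 CPM in cluster 2 (152 UMIs) and 14.2 CPM in cluster 4, where 31 cells held 2 Cd8b1 UMIs. The log2 ratio of cluster 4 to cluster 2 in PT-Cy was -3.35, and 7.34% of genes differed by 2-fold in that comparison. Cd4 varied least among the clusters, from 402 CPM in PT-Cy cluster 2 to 705 CPM in alloBMT cluster 1. Ordered by level over the 7 groups with at least 30 cells, neighbours for Cd8b1 and Zbtb7b could not be separated beyond counting error at any step. For Runx3, the steps from alloBMT cluster 1 to cluster 3 and from alloBMT cluster 0 to PT-Cy cluster 2 were separable. For Runx1, the steps from cluster 0 to 4 and from cluster 3 to 1 within alloBMT and from alloBMT cluster 2 to PT-Cy cluster 2 were. For Gata3, those from PT-Cy cluster 2 to alloBMT cluster 0 and from alloBMT cluster 3 to 1 were, and for Cd4 that from cluster 0 to 4 of alloBMT.

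**Figure D2:**
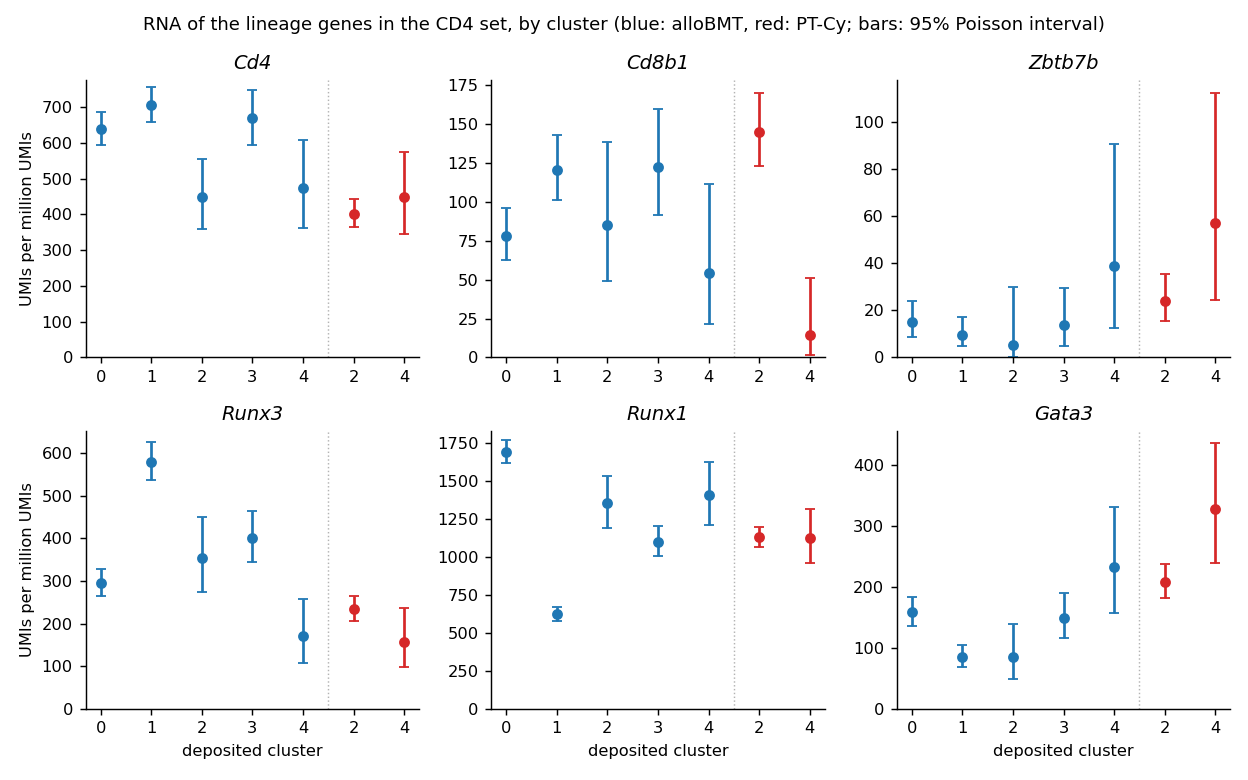
RNA level (CPM of summed UMIs, with exact 95% counting intervals) of the 6 detected lineage genes in each deposited cluster and library of the CD4 set with at least 30 cells. Runx1 was lowest (622 CPM) and Runx3 highest (579 CPM) in alloBMT cluster 1, and Gata3 was highest in cluster 4 of PT-Cy (328 CPM).

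Within cluster 2, with 42 and 238 cells, Gata3 was 85.5 CPM in alloBMT (16 UMIs) and 208 CPM in PT-Cy (218 UMIs), a log2 ratio of 1.28 (0.55 to 2.12), where 5.73% of genes passed the size rule. In that cluster the 6 red cell genes summed to 155 and 925 CPM. Runx3 was 353 and 234 CPM, a log2 ratio of -0.59 (-0.99 to -0.18). Cd4 was 449 and 402 CPM, a log2 ratio of -0.16 (-0.50 to 0.20), so most of the difference seen in the whole set was not found inside this cluster. Runx1 was 1352 and 1130 CPM, a log2 ratio of -0.26, and Cd8b1 85.5 and 145 CPM, a log2 ratio of 0.76 (0.02 to 1.61). Within cluster 4, with 34 and 31 cells, the log2 ratio was 0.49 for Gata3, -0.12 for Runx3 and -0.32 for Runx1. There, 6.02% of 498 genes tested passed the size rule.

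Genes whose level followed a member across the 7 groups were ranked by Pearson's r of log2(CPM + 10), as a description over groups that share their libraries. For Runx3 these were Kat7 (r = 0.98), Scaf8 and Lrrk1 (r = 0.96). Those nearest to Gata3 were Dennd5a (r = 0.99), Rasgrp1 and Pak2 (both r = 0.98). Zbtb7b was closest to Mrtfa, Cdc37 and Pak2 (each r = 0.99). Cd4 was followed by Hrh2 (r = 0.99), Zap70 and Cd3g (both r = 0.97), the last 2 encoding parts of T cell receptor signalling. Cherp (r = 0.99), Sirt7 and Pcbd2 (both r = 0.98) followed Cd8b1, and Prkrip1 (r = 0.95), Tmc8 and Ppp1r18 (both r = 0.90) followed Runx1. Among the members, r was 0.96 for Zbtb7b with Gata3 and -0.90 for Runx3 with Gata3. Zbtb7b rested on 1 to 25 UMIs per group, and Cd8b1 on 2 UMIs in PT-Cy cluster 4. The part of counting error in their r values was not tested.

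Accessibility separated the CD8 and CD4 sets of alloBMT far more at Cd8a and Cd8b1 than at Cd4 or the factor genes. In alloBMT, all 19 Cd8a and Cd8b1 peaks had a higher CPM in the CD8 set. Of the 61 member peaks with at least 100 counts over both sets, 12 were at least 2-fold higher in the CD8 set and 3 at least 2-fold lower, where 2.06% and 0.660% of 40158 peaks were. The 12 higher peaks were the 11 testable Cd8a and Cd8b1 peaks and 1 peak of Runx3, and the 3 lower peaks were at Cd4, Zbtb7b and Runx1. Since the sets were sorted and gated on these coreceptors, the Cd8 and Cd4 values check the labels.

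Summed over its peaks, Cd8a (chr6:71373427-71379171) had 16.6 CPM in the CD4 set and 91.1 CPM in the CD8 set of alloBMT, a log2 ratio of 2.45. Cd8b1 (chr6:71322788-71337492) had 22.2 and 98.8 CPM, a log2 ratio of 2.15. The testable peaks of this locus ranged from 3.60-fold to 11.1-fold higher in the CD8 set, with a median log2 ratio of 2.21. The highest ratio was outside the genes, 8.918 kb from Cd8a (chr6:71363729-71364509), where the CD4 set had 7 counts and the CD8 set 185. The strongest Cd8a peak, 3.602 kb outside the gene (chr6:71369042-71369825), had 5.16 and 31.1 CPM. The peak over the Cd8a start, whose upstream sequence is printed above (chr6:71373077-71373647), had 4.30 and 21.8 CPM. For Cd8b1 the strongest peak lay over the end that the gene is known to be transcribed from (chr6:71321712-71323019), at 7.89 and 36.5 CPM. The smallest ratio, a log2 value of 1.85, was inside Cd8b1 (chr6:71332230-71332843). Thus the low CD4-set signal extended over the outer, start and inner peaks of the locus alike.

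Cd4 (chr6:124864693-124888247) was the mirror case, with 124 CPM over its 5 peaks in the CD4 set and 74.7 CPM in the CD8 set, a log2 ratio of -0.73 (-0.86 to -0.61). The difference lay in particular peaks. The strongest, inside the gene (chr6:124884875-124886458), had 59.5 and 25.1 CPM, a log2 ratio of -1.25 (-1.45 to -1.05). A small peak over the end of the gene that Cd4 is known to be transcribed from (chr6:124888073-124888298) had 47 counts in the CD4 set and 13 in the larger CD8 set, a log2 ratio of -3.11 (-4.12 to -2.20), and was under the 100-count minimum. By contrast, the peak 6.909 kb beyond the other end (chr6:124856612-124857784) had 21.8 and 23.1 CPM, a log2 ratio of 0.08 (-0.19 to 0.36).

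At Zbtb7b (chr3:89377644-89393673), the summed level was 105 CPM in the CD4 set and 76.9 CPM in the CD8 set of alloBMT, a log2 ratio of -0.44. A peak inside the gene (chr3:89385507-89385768) had 76 and 53 counts, 10.9 and 3.19 CPM, a log2 ratio of -1.77 (-2.31 to -1.25). The peak over the upstream end of the gene (chr3:89393432-89394360) had 30.5 and 26.2 CPM, a log2 ratio of -0.22 (-0.46 to 0.02). Near the other end, a peak (chr3:89377881-89379116) had 9.46 and 11.6 CPM. The gene for the helper-lineage factor therefore differed between the sets by more than 2-fold at an internal peak and by less at the peak over its upstream end, which covers neither annotated start of the sequence table.

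The 3 other factor genes had nearly equal totals in the 2 sets of alloBMT. Runx3 (chr4:135120645-135177990) had 328 and 341 CPM, a log2 ratio of 0.06 (-0.01 to 0.13), Runx1 (chr16:92601466-92826074) 432 and 372 CPM, a log2 ratio of -0.22, and Gata3 (chr2:9857078-9887953) 189 and 172 CPM, a log2 ratio of -0.13. At the distal Runx3 start (chr4:135119827-135120697), which bears the paired RUNX letters, the levels were 56.3 and 62.4 CPM. At its proximal start (chr4:135152060-135153178) they were 42.4 and 42.1 CPM. Within Runx3, a peak between the starts (chr4:135136235-135137114) had 12.2 CPM in the CD4 set and 26.8 CPM in the CD8 set, a log2 ratio of 1.14 (0.80 to 1.49), and a peak further on (chr4:135161463-135161755) had 10.0 and 5.06 CPM, a log2 ratio of -0.99. So the cytotoxic-lineage factor differed between the sets in both directions at single peaks and not in its total.

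Runx1 was near equal at its distal start (chr16:92824917-92826560), at 76.0 and 75.3 CPM, and at its proximal start (chr16:92696598-92698996), at 42.0 and 40.3 CPM. An internal Runx1 peak (chr16:92640978-92641428) had 7.46 and 3.37 CPM, a log2 ratio of -1.14. Gata3 had 21.4 and 17.6 CPM at the annotated start used for its sequence (chr2:9878361-9878921). Its strongest peak (chr2:9879246-9879839) had 35.4 and 30.5 CPM. Its extremes among tested peaks were a log2 ratio of -0.71 just outside the gene (chr2:9888922-9890087) and 0.26 inside it (chr2:9870961-9872101). Over the 50 tested peaks of the members other than Cd8a and Cd8b1, 11 ratios lay above 0 and 39 below, with a median of -0.19 against 0.00 for all tested peaks.

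**Figure D3:**
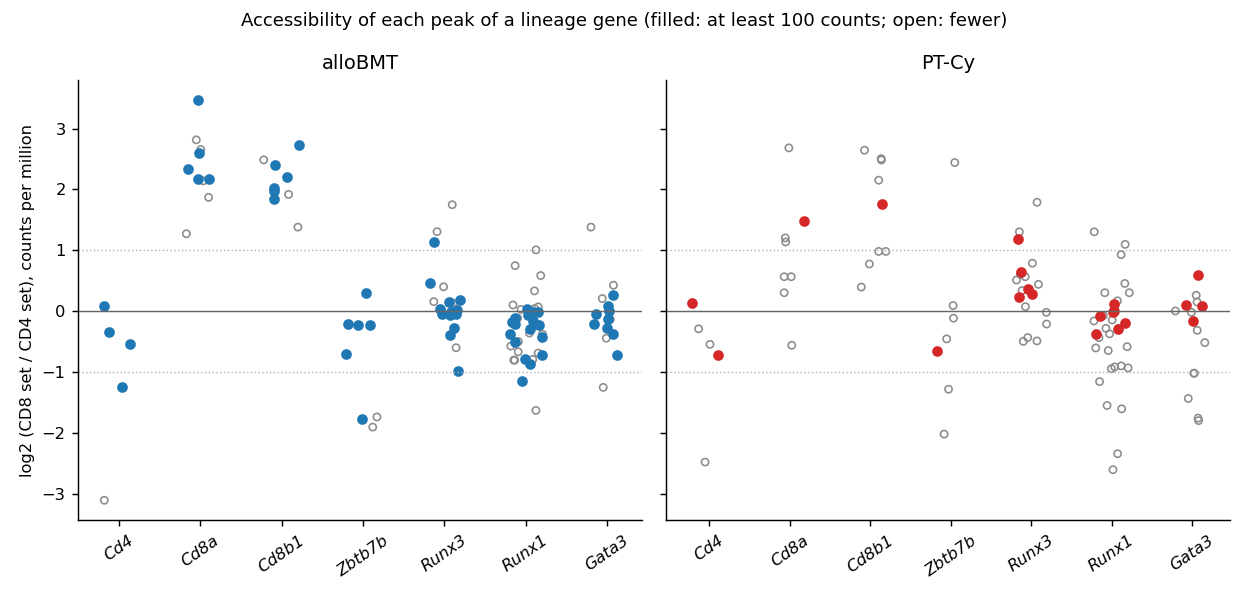
Log2 ratio of CD8-set to CD4-set accessibility for each peak of each lineage gene in alloBMT and PT-Cy; filled points have at least 100 counts over both sets, open points fewer, and dotted lines mark 2-fold. All Cd8a and Cd8b1 peaks of alloBMT lie above 0, while 39 of the 50 tested peaks of the other genes lie below 0.

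In PT-Cy the same separation was present and smaller at Cd8a. Summed CPM was 38.3 in the CD4 set and 75.4 in the CD8 set at Cd8a, a log2 ratio of 0.98, and 33.1 and 105 at Cd8b1, a log2 ratio of 1.67. At Cd4 it was 110 and 81.8, a log2 ratio of -0.43. Of the 19 Cd8a and Cd8b1 peaks, 16 had a ratio above 0, 1 below, and 2 had too few counts for a value. With fewer cells, 21 member peaks reached 100 counts, of which 3 were at least 2-fold higher in the CD8 set (1 each at Cd8a, Cd8b1 and Runx3) and 0 lower, where 1.05% and 0.121% of 13272 peaks were. The Runx3 total, near equal in alloBMT, was 248 CPM in the CD4 set and 330 CPM in the CD8 set, a log2 ratio of 0.41 (0.24 to 0.59).

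Comparing the libraries within each set shows where these totals differed. In the CD4 set, the 19 Cd8a and Cd8b1 peaks together had 38.9 CPM in alloBMT and 71.5 CPM in PT-Cy, a log2 ratio of 0.88 (0.55 to 1.20), and none of them alone reached 100 counts. In the CD8 set the corresponding ratio was -0.07. Runx3 accessibility in the CD4 set was lower in PT-Cy, with a log2 ratio of -0.40 (-0.56 to -0.25), and in the CD8 set the ratio was -0.05 (-0.14 to 0.05). For Runx1 the ratios were 0.27 (0.16 to 0.38) in the CD4 set and 0.22 (0.14 to 0.31) in the CD8 set, and for Gata3 they were -0.01 (-0.19 to 0.18) and 0.07. Gata3 RNA was thus higher in PT-Cy, whereas the ratio of the sum over its peaks lay within counting error of 0. Scaling by edgeR factors moved all CD4-set ratios by -0.20, which brought Runx3 to -0.60, Runx1 to 0.08 and Gata3 to -0.20.

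Of the 32 member peaks testable in the CD4 set, 0 were at least 2-fold higher in PT-Cy and 1 was lower, where 0.751% and 3.82% of 19971 peaks were. In the CD8 set, 1 of 58 was higher and 3 were lower, where 1.01% and 3.27% of 35872 peaks were. The 1 higher peak, inside Cd8b1 (chr6:71333700-71334118), had 80 counts in alloBMT and 34 in PT-Cy, 4.82 and 10.9 CPM. The 3 lower peaks were 1 each at Cd8a, Cd8b1 and Runx3. These counts are near those that the shares of all peaks give.

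The CD4-set peak lower in PT-Cy belonged to Runx3. That peak, inside the gene downstream of both starts (chr4:135167942-135169752), had 391 counts in the alloBMT CD4 set and 35 in the PT-Cy CD4 set, 56.1 and 22.7 CPM, a log2 ratio of -1.30 (-1.84 to -0.80). In the CD8 set it had 56.7 and 51.6 CPM. It therefore had nearly the same level in both sets of alloBMT, with a log2 ratio of 0.02 (-0.16 to 0.19), and was higher in the CD8 set of PT-Cy, with a log2 ratio of 1.18 (0.65 to 1.75). A neighbouring Runx3 peak (chr4:135158666-135160430), chosen for mention after its values were seen, had 49.0 and 29.2 CPM in the 2 CD4 sets and 40.3 and 45.9 CPM in the CD8 sets. The distal start, by comparison, had 56.3 and 50.0 CPM in the CD4 sets and the proximal start 42.4 and 39.6 CPM. The CD4-set log2 ratio was thus beyond counting error at the 2 inner peaks, and within it at the distal start (-0.17, -0.54 to 0.18) and the proximal start (-0.10, -0.52 to 0.30).

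**Figure D4:**
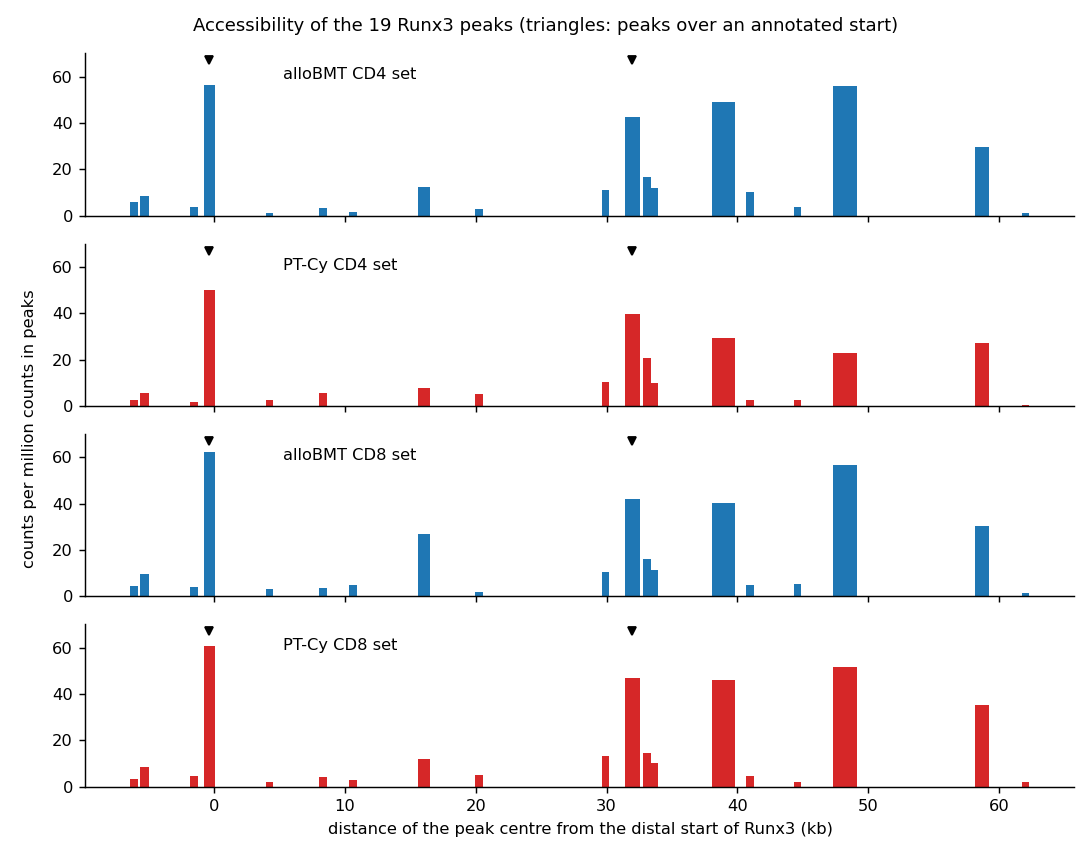
Accessibility (CPM) of each of the 19 Runx3 peaks by distance from the distal start, in the CD4 and CD8 sets of each library. The inner peak 48.2 kb from the distal start stood at 22.7 CPM in the PT-Cy CD4 set and between 51.6 and 56.7 CPM in the other 3.

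The Cd8 signal inside the CD4 set was followed further by expressing it as a share of the CD8 set's level in the same library. Over the 19 Cd8a and Cd8b1 peaks, the CD4 set had 20.5% of the CD8-set level in alloBMT (18.0 to 23.2) and 39.6% in PT-Cy (32.0 to 48.6). Cells without a Cd8b1 UMI had 11.7% (9.65 to 14.1, 731 cells) and 30.5% (22.6 to 40.3, 193 cells). Cells with a Cd8b1 UMI had 45.5% (38.5 to 53.4, 195 cells) and 55.6% (41.5 to 73.3, 91 cells). Accessibility at the Cd8 locus thus was higher in the cells with Cd8b1 RNA. The PT-Cy value was above the alloBMT value beyond counting error in cells without a Cd8b1 UMI, and in cells with one the intervals overlapped.

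The locus signal was also compared by number of Cd8b1 UMIs, a division chosen after the data were seen. With 1 Cd8b1 UMI, cells had 32.0% of the CD8-set level in alloBMT (24.5 to 41.0, 131 cells). In PT-Cy they had 29.0% (15.7 to 49.0, from 14 counts in 51 cells). With at least 2, they had 63.7% (51.2 to 78.3, 64 cells) and 80.2% (57.1 to 110, 40 cells). Cells with at least 2 were also deeper than cells with none. Median UMIs were 4292.5 against 2706 in alloBMT and 5003 against 3414 in PT-Cy. Median accessibility counts were 9583 against 6739 and 4734.5 against 3969. The part of depth in these values was not tested. In PT-Cy, the interval for 1 Cd8b1 UMI lay below that for at least 2 and held the value of cells with none, 30.5%. It was too wide to tell a step at the second UMI from a gradual rise.

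Peaks that were more open in the CD4 set were also compared over these subsets, using the 4 Cd4 and Zbtb7b peaks at least 2-fold higher in the alloBMT CD4 set with at least 50 counts, chosen on those values. Cells without a Cd8b1 UMI had 292% of the CD8-set level in alloBMT (257 to 332) and 193% in PT-Cy (139 to 267). Cells with 1 had 267% and 206%. Cells with at least 2 had 144% (98.6 to 204) and 105% (49.1 to 202, from 10 counts). In alloBMT the intervals for none and for at least 2 UMIs did not overlap. The peaks were chosen on the alloBMT CD4 set, in which 731 of 926 cells had no Cd8b1 UMI. The alloBMT values reuse those counts, so no difference between these subsets is read from them. In PT-Cy, whose counts were not used in the choice, the intervals overlapped. In both libraries the interval for at least 2 UMIs included the level of the CD8 set, although each of these cells had a Cd4 UMI.

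By number of Cd4 UMIs, Cd8 accessibility in PT-Cy was 47.8% of the CD8-set level with 1 Cd4 UMI, 38.7% with 2 and 18.8% (9.34 to 33.9) with at least 3. In alloBMT it was 26.1%, 16.6% and 16.5%. Among alloBMT clusters 0 to 4 it was 13.2%, 26.3%, 17.0%, 23.1% and 27.7%, with 15, 15 and 17 counts in clusters 2, 3 and 4. In PT-Cy it was 38.8% in cluster 2 and 29.6% in cluster 4, the latter from 8 counts. Within cluster 2 the PT-Cy interval (30.9 to 48.4) lay above that of alloBMT (9.50 to 28.1). Within cluster 4 the intervals overlapped (12.7 to 58.6 and 16.1 to 44.4). Cells of alloBMT cluster 3 had a median of 2122.5 accessibility counts, against 6612 to 9528 in the other alloBMT clusters. At least 1 count in a Cd8 peak was present in 70.4% of CD8-set cells and 15.9% of CD4-set cells of alloBMT, and in 55.5% and 27.8% of those of PT-Cy.

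**Figure D5:**
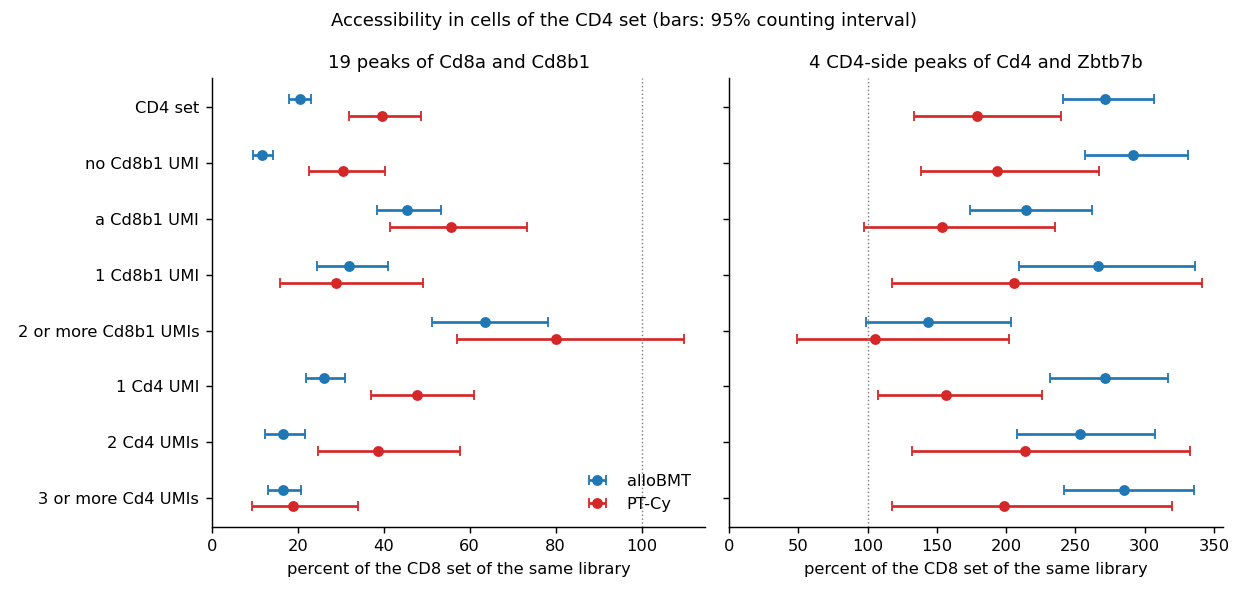
Accessibility of the Cd8a and Cd8b1 peaks (left) and the 4 CD4-side peaks (right) in subsets of the CD4 set, as a percentage of the CD8-set level of the same library, with exact 95% counting intervals. The Cd8 value was highest in cells with at least 2 Cd8b1 UMIs, at 63.7% in alloBMT and 80.2% in PT-Cy, where the CD4-side value was lowest. The 4 CD4-side peaks were chosen on alloBMT values.

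At Runx3, the CD4 set of alloBMT had 96.2% of the CD8-set level, with 94.9% in cells without and 99.9% in cells with a Cd8b1 UMI. In PT-Cy it had 75.0% (66.5 to 84.5), with 66.7% (57.3 to 77.3) in cells without and 89.7% (75.6 to 106) in cells with a Cd8b1 UMI. Of these 2 PT-Cy subsets, the cells with Cd8b1 RNA were thus nearer to the CD8 set, although the intervals overlapped. By number of Cd8b1 UMIs, the PT-Cy value was 99.7% (79.2 to 124) with 1 and 80.4% (63.0 to 101) with at least 2. The higher value was thus not in the cells with more Cd8b1 UMIs, and these intervals overlapped too. Across alloBMT clusters 0 to 4, Runx3 accessibility was 88.6%, 105%, 102%, 94.4% and 72.7%. As for its RNA, the value was highest in cluster 1 (98.1 to 112) and lowest in cluster 4 (57.5 to 90.6). The intervals of clusters 2 (86.5 to 119) and 3 (77.5 to 114) overlapped each other and those of clusters 1 and 4. Runx1 accessibility was 134%, 98.4%, 126%, 127% and 107%. As for its RNA, the value was highest in cluster 0 (127 to 142) and lowest in cluster 1 (92.4 to 105). The intervals of clusters 2 (110 to 144), 3 (108 to 149) and 4 (89.4 to 128) overlapped each other and that of cluster 0. No order is read among clusters with overlapping intervals.

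RNA of the other detected members differed by less than 2-fold between cells with and without a Cd8b1 UMI, with some intervals clear of 0. In cells with a Cd8b1 UMI against those without, the Cd4 log2 ratio was -0.39 (-0.55 to -0.23) in alloBMT and -0.42 (-0.71 to -0.15) in PT-Cy. Runx3 was 0.17 (-0.01 to 0.35) and 0.57 (0.22 to 0.92), Runx1 -0.10 and -0.38 (-0.55 to -0.22), and Gata3 -0.36 and -0.33. The 2-fold rule was passed by 0.352% and 0.657% of all genes, and by no member other than Cd8b1, which made the division. Cells with a Cd8b1 UMI were also deeper, at medians of 3118 against 2706 UMIs in alloBMT and 4381 against 3414 in PT-Cy, and the part of that in these ratios was not tested. Of listed CD8 T cell markers other than Cd8a and Cd8b1, 10 and 6 were testable, none reached 2-fold, and the median log2 ratio was 0.27 and 0.70. The largest were Klrk1 at 0.78 in alloBMT and Nkg7 and Gzmk, both at 0.79, in PT-Cy. That of listed helper-type genes was -0.48 and -0.38, and that of red cell genes -0.12 and -0.81. Of the member peaks, 27 were testable in alloBMT, none of them at Cd8a or Cd8b1, and 0 differed by 2-fold between cells with and without a Cd8b1 UMI, where 0.137% of 17501 peaks did.

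Other genes of the lineage-choice pathway, 33 in a list of regulators, gave 30 with at least 100 UMIs. Between PT-Cy and alloBMT, 3 of the 30 were at least 2-fold higher and 1 was lower, where 4.93% and 2.88% of all genes were, and the list's median log2 ratio was 0.06 against 0.02 for all genes. Tox, needed for CD4 T cell development and also high in chronically stimulated T cells, was 5850 CPM in alloBMT and 1943 in PT-Cy, a log2 ratio of -1.59. Satb1, a chromatin organiser that acts at the lineage genes in the thymus, was 97.4 and 411 CPM, a log2 ratio of 2.08. Tcf7, which encodes TCF-1, was 27.7 and 95.7 CPM, and Socs1, an inhibitor of cytokine signals, 19.5 and 46.7 CPM. Cbfb, the shared partner subunit of the RUNX proteins and named here after its values were seen, was 205 and 233 CPM.

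Of 14 helper-type genes, 6 were testable and 3 were at least 2-fold higher in PT-Cy, with a median log2 ratio of 1.0. They were Il2ra, a chain of the interleukin 2 receptor (2.57), Tnfsf8, the CD30 ligand (1.13), and Rora, a nuclear receptor (1.03). Of 12 CD8 T cell markers other than Cd8a and Cd8b1, all were testable, 2 were higher and 6 were lower, with a median of -1.0. The largest were Klrc1, an NKG2 receptor (-2.40), Ccl5, a chemokine of effector cells (-2.32), Itgae, which encodes CD103 (1.40), and Eomes, a T-box factor of cytotoxic cells (-1.27). Runx3, whose RNA was lower in the same comparison, and Gata3, whose RNA was higher, are not in these lists.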

How the data were processed

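Per the submitters' processing notes, the authors made the tables with Cell Ranger ARC 1.0.1 and MACS2. The notes name GRCh38, but gene names and peak coordinates are those of mouse, and member peaks were placed on GRCm38.p6 genes of RefSeq. The deposited values used are whole-number counts: RNA UMIs per gene for the CD4 set and accessibility counts per peak for both sets. The cell table has 58 columns, of which 3 were used (library, cell set and cluster) and 55 were not. The sources used here do not say how clusters were built or whether doublets were removed, and no doublet caller was run.

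For each group of cells, UMIs or accessibility counts were added up and scaled to 1000000 (CPM). Ratios carry exact binomial 95% intervals. A difference was called when at least 2-fold with at least 100 counts over both groups. Where a group had 0, the ratio was taken against 3 counts, as a bound. The analysis was checked on simulated counts. Alternatives used edgeR 4.0.16 and DESeq2 1.42.0 factors, other count minimums, a 2 kb window and subsets of cells.

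The members and the 9 lists of 111 genes were chosen with earlier results of these data known. Named peaks are, for each gene, the one with the most counts, the highest and lowest tested CD8-to-CD4 ratio in alloBMT and those over a start. Up to 4 testable genes per list with the largest ratios and the 3 most similar genes per member are named. Divisions by number of Cd4 or Cd8b1 UMIs, accessibility by cluster and the 4 CD4-side peaks were chosen after seeing the data. Scripts ran in Python 3.11.15 with scipy 1.17.1, and in R 4.3.3.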

Additional observations from a re-analysis of the deposited data

Results flagged for a closer look

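The peak 7.857 kb outside Cd8a (chr6:71387028-71387988) stood out because its CPM moved in opposite directions between PT-Cy and alloBMT in the CD4 and CD8 sets. The log2 ratio was 1.60 in the CD4 set, from 12 to 8 counts in the smaller PT-Cy library, and -1.13 in the CD8 set, from 128 to 11 counts. The difference between the 2 ratios was not tested. It was also the 1 peak of the Cd8 locus with a CD8-to-CD4 log2 ratio below 0 in PT-Cy, at -0.56 (-2.01 to 0.96).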

How the results depend on the processing

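No paired analysis was possible because each group is 1 pooled library, and for the same reason no replicate could be left out. Of 60 alternatives for the counts and shares, 36 stayed within the limits set and 24 moved. A change of direction was not defined for these. Of 210 alternatives for 34 single ratios, 186 stayed within the main interval, 24 moved beyond it and 0 turned a called direction. A turn could be recorded only for ratios of at least 2-fold in the main setting, which no RNA ratio with at least 100 UMIs was.

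The number of members at least 2-fold apart in RNA between PT-Cy and alloBMT, among those with at least 100 UMIs, was 0. It was 1 with edgeR factors, DESeq2 factors or cells with no Cd8b1 UMI (Runx3 each time), 1 within cluster 2 (Gata3), 1 with a minimum of 20 UMIs (Zbtb7b) and 3 at 1.5-fold (Cd4, Runx3 and Gata3). The 15 called CD8-to-CD4 peaks of alloBMT became 29 with a minimum of 20 counts, 24 with a minimum of 50 and 8 with a 2 kb window, which tests fewer peaks. The 3 of PT-Cy became 12 with a minimum of 20 and 7 at 1.5-fold. Between the libraries, the 1 peak of the CD4 set became 10 with a minimum of 20, 4 with a minimum of 50 and 3 at 1.5-fold. The 4 of the CD8 set became 15 with a minimum of 20, 7 with a minimum of 50, 7 at 1.5-fold and 2 without the 5% of cells with the most counts.

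Cd8-locus accessibility in the alloBMT CD4 set, 20.5% of the CD8 set, was 11.7% in cells without and 45.5% in cells with a Cd8b1 UMI, and 16.2% without the 5% of cells with the most counts. For PT-Cy, 39.6% became 30.5% and 55.6% with the Cd8b1 division. The 3 members whose thinned shares were apart became 5 without thinning and 2 at 1200 UMIs, where Runx1 was no longer apart. Where a count minimum or window changed a number, more or fewer peaks were tested; for the other settings the cause was not tested. Depth limits the PT-Cy CD4 set most, where none of the 19 Cd8 peaks reached 100 counts in the comparison of libraries.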

Other observations

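A single PT-Cy cell, in cluster 0, held 25 of the 302 Gata3 UMIs of that library. Without it, a check chosen after seeing the data, PT-Cy Gata3 was 220 CPM and its log2 ratio to alloBMT was 0.78 (0.55 to 1.0).

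Across the 7 groups of clusters and libraries, r of log2(CPM + 10) was 0.70 for Runx3 with Cd8b1. For Runx3 with Cd4 it was 0.72. These 7 groups share 2 libraries, and the values are a description. The gate holds Cd4 at 1 or more UMI per cell, and Cd8b1 rested on 2 UMIs in PT-Cy cluster 4. By the Cd8b1 division, the log2 ratios of Cd4 and Runx3 had opposite signs. In cells with a Cd8b1 UMI against those without, Cd4 was -0.39 in alloBMT and -0.42 in PT-Cy. Runx3 was 0.17 (-0.01 to 0.35) and 0.57 (0.22 to 0.92).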
